A study of Mus musculus with 2 samples.

Results

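The immediate-early genes examined here, mostly transcription factors, were 11: the Fos family (*Fos*, *Fosb*, *Fosl1* and *Fosl2*), the Jun family (*Jun*, *Junb* and *Jund*), *Egr1*, *Ier2*, *Ier3* and *Myc*. They were chosen by symbol, with earlier results of these data known, and all 11 were among the 14450 genes with a tag in either library. Digital gene expression (DGE) tags had been sequenced from a single library of each of 2 mouse cell lines, so differences lack a replicate check and the tests compare libraries, not conditions. The plasmid pSV3-neo was used to transform type B spermatogonia of a mouse aged 10 days into GC-1spg. For GC-2spd (ts), spermatocytes of a mouse aged 6 weeks received the SV40 large T antigen. Both lines carry SV40 sequences and were kept in DMEM with sodium bicarbonate at 1.5 g/L and with 10% FBS, and the labels give no other treatment. Where values are paired below, the one for GC-1spg comes first and the one for GC-2spd (ts) second. In DGE profiling *Nla*III cuts cDNA at CATG sites and *Mme*I releases a tag of 21 bases, the CATG and the 17 bases after it. A molecule gives about 1 tag whatever its length, so levels of different genes can be set side by side as TPM, the count scaled to the clean tags of its library.

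Immediate-early genes are transcribed within minutes of a growth factor, stress or adhesion signal, without new protein synthesis. Kinases of the MAP kinase cascades phosphorylate factors already bound at their promoters, such as the serum response factor Srf with its Elk partners, and the transcripts made are mostly unstable. Fos proteins pair with Jun proteins through a leucine zipper to form AP-1, while Egr1 binds GC-rich sites through zinc fingers and Myc pairs with Max to drive growth genes.

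The counts rest on a few tags per gene, and those that the results turn on are shown here. The tag of *Fosl1* also fits another gene and is left out of its count, and that of *Jun* is 1 of 4 tags. The CATG is in capitals, and so is the base that differs from the reference in the variant of *Fosb*. Positions are on GRCm38, from GENCODE release M21.
*Fos*, 3′ UTR, chr12:85477183-85477203, plus strand: CATGtggaaagtgaatttgaa
*Fosb*, 3′ UTR, chr7:19302965-19302985, minus strand: CATGcaattttacttctgtaa
*Fosb*, the same site with C13T: CATGcaattttaTttctgtaa
*Fosl1*, 3′ UTR, chr19:5455649-5455669, plus strand: CATGttatccagcctactcta
*Jun*, 3′ UTR, chr4:95049674-95049694, minus strand: CATGtttgtttgtttgggtgt
*Junb*, 3′ UTR, chr8:84977205-84977225, minus strand: CATGgcccccttccagcgtat
*Jund*, 3′ UTR, chr8:70700100-70700120, plus strand: CATGcgcggactagctgcggt
*Ier2*, 3′ UTR, chr8:84661727-84661747, minus strand: CATGggacagacgcgggtgct
*Ier3*, 3′ UTR, chr17:35822831-35822851, plus strand: CATGgattgtcagagggcggc
*Myc*, 3′ UTR, chr15:61990264-61990284, plus strand: CATGtaccataatttttttta
*Myc*, 3′ UTR, chr15:61990193-61990213, plus strand: CATGtaaatagggccttgaaa

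The libraries held 5072149 clean tags for GC-1spg and 4726808 for GC-2spd (ts), so that 1 copy was worth 0.197 and 0.212 TPM, and no tag with a single copy was listed. Of 23 germ cell markers, 21 had no tag in either library, among them *Ddx4*, *Dazl*, *Stra8* and *Sycp3*, while *Spo11* had 2 copies in GC-1spg and *Tex15* had 9 in GC-2spd (ts). The 12 fibroblast markers, 10 of them listed, summed to 3775 and 2725 TPM, with *Thy1* and *Lum* at 0. That sum followed *Col1a1*, with 2063 and 513 TPM. By the rule given below, 4 of the markers were called higher and 2 lower, where 11.7% and 7.84% of all genes were. The median log2 ratio of the markers was 0.55. Sertoli cell markers (6 of 9 listed) summed to 155 and 51.0 TPM, with *Fshr*, *Rhox5* and *Cldn11* at 0. Of these sums *Wt1* held 122 and 0 TPM, while *Gata4* was called higher, with 5.72 and 29.2 TPM. Leydig cell markers (3 of 8 listed) summed to 0.789 and 40.8 TPM, with *Cyp17a1*, *Hsd3b1*, *Hsd3b6*, *Insl3* and *Lhcgr* at 0, and *Nr5a1* alone held 0 and 39.8 TPM. Peritubular myoid markers (all 5 listed) summed to 13.0 and 122 TPM, of which *Acta2* held 9.86 and 117 TPM. The study describes both lines as derived from male germ cells, and the defining germ cell markers were absent or near 0 in both. The part of these marker differences in the results below was not tested.

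In GC-2spd (ts), *Fos*, *Fosb*, *Egr1* and *Ier2* were higher, by 2.84 to 3.89 times, and *Fosl2* and *Ier3* were lower, by 4.14 and 13.5 times. *Jun*, *Junb*, *Jund* and *Myc* differed by less than 2-fold, and *Fosl1* could not be judged from tags that fit 1 gene only. A call needed a log2 ratio of at least 1 in size and a false discovery rate (FDR, Benjamini-Hochberg) not above 0.001 in the two-sided Audic-Claverie test. By this rule 6 of the 11 genes were called, where 19.5% of all genes were. Of these, 4 were called higher in GC-2spd (ts) against 11.7% of all genes, and 2 were called lower against 7.84%. As the genes were chosen with earlier results known, these shares are a description and not a test. All genes also include those with too few tags to reach the FDR threshold, so the shares are not matched for level. The same 6 genes were those that differed by 2-fold or more whatever the FDR, where 45.7% of all genes did, 24.2% higher and 21.5% lower. That background is not like for like, since a gene listed in a single library always passes with its zero set to 0.01 TPM. All 11 genes were listed in both libraries, and so were 11373 of the 14450. The median log2 ratio of the 11 genes was 0.20, and that of all genes with a tag was 0.13. Over all genes 1684 were called higher and 1133 lower, against 1292 and 1443 under TMM scaling, which corrects library sizes for the make-up of the RNA and lowers every log2 ratio by 0.17. With an assumed coefficient of variation of 0.2 between cultures, which 1 library per line cannot estimate, the 4 higher calls were lost, and at 0.4 all 6 were. In bulk RNA, fewer cells that express a gene and less RNA of it per cell cannot be told apart.

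**Figure D1:**
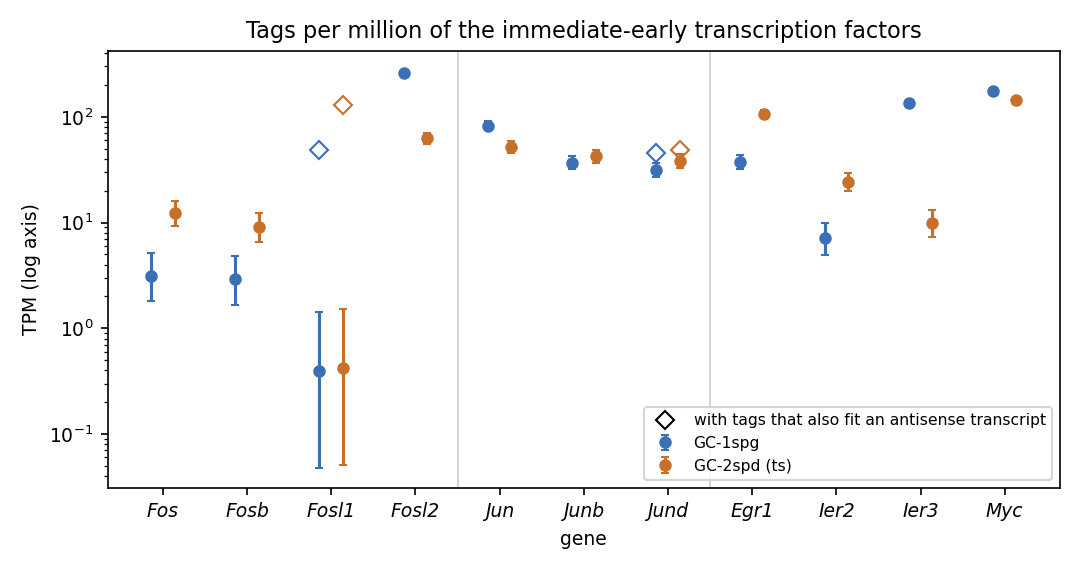
Level of each gene in TPM on a log axis, with GC-1spg in blue and GC-2spd (ts) in orange, 1 library each, and bars for the exact 95% Poisson interval. Open diamonds add tags that also fit a transcript on the opposite strand. *Fos*, *Fosb*, *Egr1* and *Ier2* lie higher in GC-2spd (ts), *Fosl2* and *Ier3* lie lower, and *Fosl1* moves from under 1 TPM to 49.1 and 130 TPM with those tags.

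*Fos*, which encodes c-Fos, the founding partner of Jun in AP-1, had 16 and 58 tags, or 3.15 and 12.3 TPM. The log2 ratio was 1.96 (exact 95% interval 1.14 to 2.86, FDR 9.8e-07 by the Audic-Claverie test). All copies were of the 1 tag shown above, at the CATG site 87 bases from the 3′ end. In rank, 29.0% of the genes listed in GC-1spg and 47.9% of those listed in GC-2spd (ts) had fewer tags than *Fos*.

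*Fosb* encodes a close relative of c-Fos. It had 15 and 43 tags, or 2.96 and 9.10 TPM, with a log2 ratio of 1.62 (0.74 to 2.58, FDR 0.000354). Of the 43 copies, 12 differed from the reference by C13T, counted from 1 at the C of CATG, and 0 of the 15 copies in GC-1spg did. These 12 copies were 27.9% of the tags of *Fosb* in GC-2spd (ts) (exact 95% interval 15.3 to 43.7), while tags with 1 mismatch made up between 0% and 3.39% of the tags of the other 10 genes in either library. With exact matches only, *Fosb* had 15 and 31 tags and was no longer called, with a log2 ratio of 1.15. TMM scaling and DESeq2 size factors, another scaling of library sizes, also ended its call, at 1.45 and 1.46.

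*Fosl1*, which encodes Fra-1, rested on how its tags were assigned. Only 2 copies in each library, of a tag in the coding sequence, fitted *Fosl1* alone, and the log2 ratio of 0.10 had an interval from -3.68 to 3.89. Its tag in the 3′ UTR, with 240 and 606 copies, equally fits the antisense strand of *Ccdc85b*, a gene annotated across the end of *Fosl1* on the opposite strand. When the sense match was preferred, *Fosl1* had 249 and 615 tags, or 49.1 and 130 TPM. The log2 ratio was then 1.41 (1.19 to 1.62, FDR 6.09e-41), and *Fosl1* was called higher. In that setting 19.3% of all genes were called, 11.6% higher and 7.77% lower. Sense tags of *Ccdc85b* alone had 7 and 0 copies. The tag read from the same CATG site on the *Ccdc85b* strand, which fits both genes too, had 6 and 10. The tag sequences themselves do not tell a *Fosl1* transcript from an antisense transcript of *Ccdc85b*.

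*Fosl2*, which encodes Fra-2, moved in the other direction. It had 1315 and 296 tags, or 259 and 62.6 TPM, and differed by -2.05 on the log2 scale (-2.24 to -1.87, FDR 4.12e-136). In GC-1spg it was the most abundant of the 11 genes, above 97.6% of all listed genes, and in GC-2spd (ts) it was above 82.5%. Its 3′ UTR is 4653 bases long in the longest annotated form. The copies came from 21 tag sequences, but most were of the tag 484 bases from the 3′ end. That tag had 909 and 193 copies, 69.1% and 65.2% of the tags of *Fosl2*. The tag 1037 bases from the 3′ end had 121 and 36 copies, and the one at 4174 bases had 175 and 42. The log2 ratios of the tags at 1037 and 4174 bases were -1.65 and -1.96, so each alone was lower by more than 2-fold in GC-2spd (ts).

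The Fos family changed in make-up. By tags of 1 gene only, *Fosl2* made up 97.6% of the family in GC-1spg (exact 95% interval 96.6 to 98.3) and 74.2% in GC-2spd (ts) (69.6 to 78.4). The share of *Fos* was 1.19% (0.68 to 1.92) and 14.5% (11.2 to 18.4), and that of *Fosb* was 1.11% and 10.8%. For each *Fos* tag there were 82.2 *Fosl2* tags in GC-1spg (50.4 to 144) and 5.10 in GC-2spd (ts) (3.84 to 6.88). With the sense match preferred, *Fosl1* took 15.6% of the family in GC-1spg (13.9 to 17.5) and 60.8% in GC-2spd (ts) (57.7 to 63.8), and *Fosl2* took 82.4% and 29.2%. Under that setting the most abundant family member differed between the lines, *Fosl2* in GC-1spg and *Fosl1* in GC-2spd (ts).

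The Jun genes encode the obligate partners of Fos proteins, which can also pair with each other. *Jun* had 420 and 246 tags, or 82.8 and 52.0 TPM, and differed by -0.67 on the log2 scale (-0.90 to -0.44, FDR 2.43e-08), which passed the FDR threshold and not the fold threshold. Its copies came from 4 tags along its single exon. At 657 bases from the 3′ end there were 137 and 114 copies, with a log2 ratio of -0.16 (-0.53 to 0.21). At 928 bases there were 114 and 43, a log2 ratio of -1.30 (-1.85 to -0.79). The tags at 140 and 1260 bases, with 129 and 67 and with 40 and 22 copies, gave -0.84 (-1.29 to -0.41) and -0.76 (-1.58 to 0.02). All 4 ratios were below 0, but the intervals at 657 and 1260 bases held 0. The interval at 657 bases did not reach that at 928 bases, while those at 140 and 1260 bases overlapped both.

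*Junb* had 187 and 200 tags, or 36.9 and 42.3 TPM, and stood at 0.20 on the log2 scale (-0.10 to 0.49, FDR 0.293). *Jund* had 160 and 180 tags, or 31.5 and 38.1 TPM, and stood at 0.27 on the log2 scale (-0.04 to 0.59, FDR 0.161). Both intervals hold 0 and stay under a 2-fold difference. *Jund* had another 70 and 49 sense copies that also fit the antisense strand of the predicted gene *Gm11175*, and with them its log2 ratio was 0.10 (-0.17 to 0.37). *Jun* made up 54.8% of the Jun family in GC-1spg (51.2 to 58.3) and 39.3% in GC-2spd (ts) (35.4 to 43.2), while the share of *Junb* was 24.4% (21.4 to 27.6) and 31.9% (28.3 to 35.8).

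**Figure D2:**
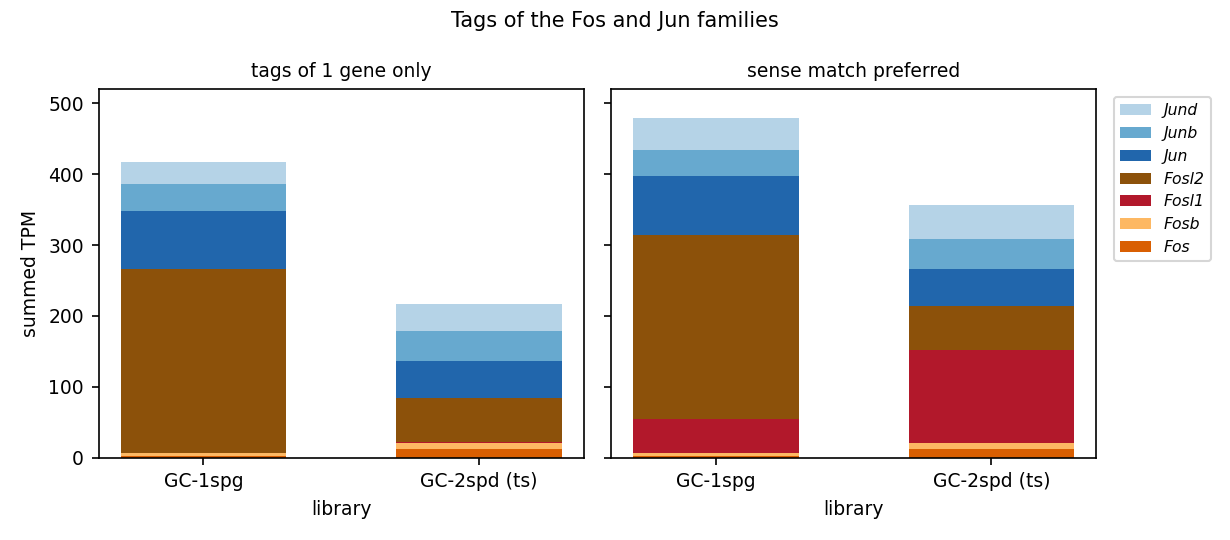
Summed TPM of the 7 Fos and Jun genes in each library, stacked by gene, on the left from tags that fit 1 gene only and on the right with sense matches preferred. The sums for GC-1spg and GC-2spd (ts) were 417 and 217 TPM on the left, and 479 and 357 TPM on the right, where *Fosl1* is the largest block in GC-2spd (ts).

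The Fos family summed to 1348 and 399 tags, and the Jun family to 767 and 626. Fos family tags were thus 63.7% of the tags of both families in GC-1spg (61.6 to 65.8) and 38.9% in GC-2spd (ts) (35.9 to 42.0). With sense matches preferred, these shares were 65.6% (63.7 to 67.5) and 60.0% (57.6 to 62.3), so the size of the difference between the lines depended on how the shared tags of *Fosl1* and *Jund* were assigned.

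*Egr1*, on chromosome 18 from 34859823 to 34864984, encodes a zinc finger factor that is induced through Srf. It had 190 and 502 tags, or 37.5 and 106 TPM, and differed by 1.50 on the log2 scale (1.26 to 1.75, FDR 5.54e-37). Its main tag, 50 bases from the 3′ end, had 188 and 477 copies. By tags of 1 gene only, *Egr1* was the second most abundant of the 11 genes in GC-2spd (ts), after *Myc*, and the fifth in GC-1spg. With sense matches preferred, *Fosl1* stood above it in both lines, and *Jund*, with 230 tags, did in GC-1spg.

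*Ier2*, a small immediate-early gene with a single exon, had 36 and 115 tags, or 7.10 and 24.3 TPM. Its log2 ratio was 1.78 (1.23 to 2.36, FDR 3.12e-11 by the same test). The tag in the 3′ UTR had 26 and 72 copies, and a tag in the coding sequence 1139 bases from the 3′ end had 8 and 39. Both tags were higher in GC-2spd (ts), with log2 ratios of 1.57 (0.91 to 2.28) and 2.39 (1.27 to 3.70).

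*Ier3*, which encodes a short-lived protein linked to survival and to the ERK and NF-κB pathways, had the largest difference of the 11 genes. It had 682 and 47 tags, or 134 and 9.94 TPM, and differed by -3.76 on the log2 scale (-4.22 to -3.33, FDR 4.47e-134). The tag 89 bases from the 3′ end carried 661 and 41 of these copies, with a log2 ratio of -3.91 (-4.40 to -3.45). A tag 574 bases from the end, also in the 3′ UTR, had 8 and 6 copies and a log2 ratio of -0.31 (-2.12 to 1.40). These intervals do not meet, so the difference of *Ier3* rests on the tag at 89 bases. *Ier3* stood above 93.8% of the listed genes in GC-1spg and above 44.0% in GC-2spd (ts). The ratio of *Ier3* to *Ier2* tags was 18.9 in GC-1spg (13.5 to 27.3) and 0.409 in GC-2spd (ts) (0.285 to 0.579), so the order of these genes was turned.

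*Myc* was abundant in both lines, with 898 and 678 tags, or 177 and 143 TPM. Its log2 ratio was -0.30 (-0.45 to -0.16, FDR 0.000118), below the fold threshold. The tags at its 3′ end did not move alike. The tag 83 bases from the end had 578 and 498 copies, a log2 ratio of -0.11 (-0.29 to 0.06), while the tag at 154 bases had 277 and 139, a log2 ratio of -0.89 (-1.20 to -0.59), and these intervals do not meet.

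**Figure D3:**
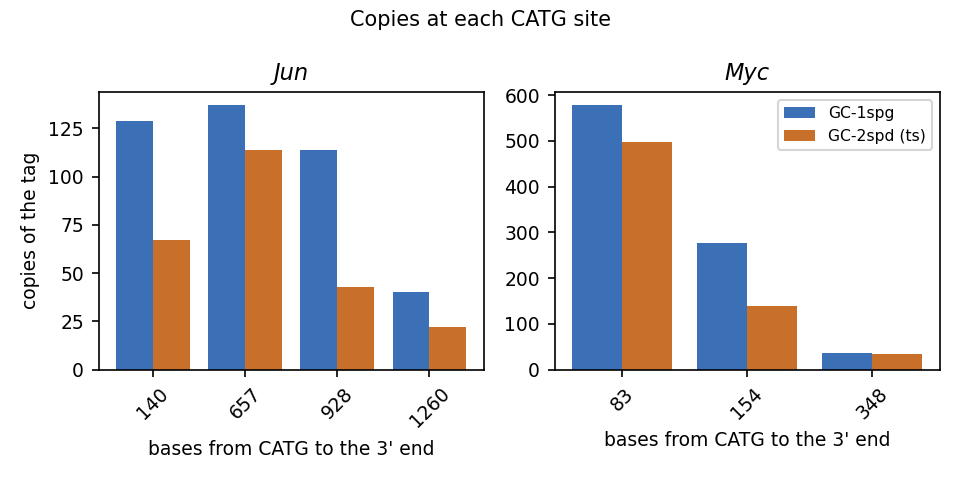
Copies of exact tags at CATG sites of *Jun* and *Myc* with at least 10 copies over both libraries, by the distance in bases from the CATG to the 3′ end of the longest coding transcript, with GC-1spg in blue and GC-2spd (ts) in orange. For *Jun* the site at 928 bases and for *Myc* the site at 154 bases have log2 ratios larger in size than their neighbours. By its counting interval, the *Jun* site is separated from the site at 657 bases and not from that at 1260 bases. The *Myc* site is separated from the site at 83 bases and not from that at 348 bases.

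Within GC-1spg the order of the levels ran *Fosl2*, *Myc*, *Ier3*, *Jun*, *Egr1*, *Junb*, *Jund*, *Ier2*, *Fos*, *Fosb*, *Fosl1*. Neighbours whose counting intervals did not separate them were *Egr1* and *Junb*, *Junb* and *Jund*, and *Fos* and *Fosb*. Within GC-2spd (ts) it ran *Myc*, *Egr1*, *Fosl2*, *Jun*, *Junb*, *Jund*, *Ier2*, *Fos*, *Ier3*, *Fosb*, *Fosl1*, and *Junb* and *Jund*, *Fos* and *Ier3*, and *Ier3* and *Fosb* were not separated. Both orders hold for tags of 1 gene only, since *Fosl1* and *Jund* move up when sense matches are preferred.

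**Figure D4:**
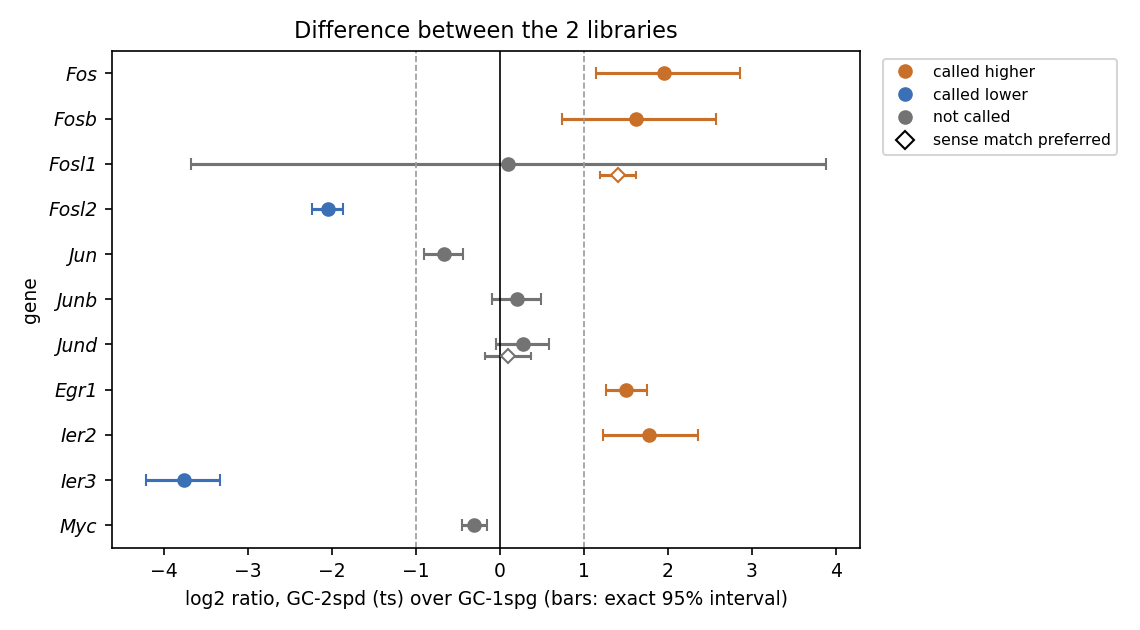
Log2 ratio of GC-2spd (ts) over GC-1spg for each gene with its exact 95% interval, from 1 library per line. Filled points use tags of 1 gene only, open diamonds prefer sense matches, and dashed lines mark a 2-fold difference. *Fos*, *Fosb*, *Egr1* and *Ier2* lie right of the dashed line at 1, as does the diamond of *Fosl1*, and *Fosl2* and *Ier3* lie left of that at -1.

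Many immediate-early transcripts carry AU-rich elements in the 3′ UTR, repeats around the pentamer ATTTA that proteins such as Zfp36 bind to speed decay. In the longest annotated 3′ UTR, searched on the transcript strand, 10 of the 11 genes held at least 1 ATTTA, and so did 71.3% of 12463 listed protein-coding genes. *Fosl2* held 8, *Ier3* 5, *Fos* and *Jun* 4 each, and *Ier2* none. Per kb the density was 8.16 in *Ier3*, 4.91 in *Fos*, 4.29 in *Myc* and 4.12 in *Junb*, and lower in the others, down to 0.43 in *Fosb* and 0 in *Ier2*. The median was 1.88 over the 11 genes and 1.36 over all those genes, and the median number of ATTTA was 2 in both. The longer TTATTTATT, which contains an ATTTA, was in the 3′ UTRs of *Fos* and *Fosl2* and in 8.48% of all. *Fos* and *Ier3*, the densest, differed in opposite directions between the lines. Of 9 listed genes for proteins that bind these elements, *Zfp36l2* was called higher, with 229 and 519 tags, and 0 were called lower. Of all genes, 11.7% were called higher and 7.84% lower.

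The genes that act on immediate-early promoters were examined next. The counts of this and the following lists stand against 19.5% of all genes called, 11.7% higher and 7.84% lower, and a median log2 ratio of 0.13. Of 18 regulators, all listed, 3 were called higher and 0 lower, with a median log2 ratio of 0.27. The share called in either direction was below that of all genes, and the share called higher was above it. *Srf* itself had 84 and 248 tags, which gives a log2 ratio of 1.66 (1.30 to 2.04). *Elk1*, its partner at serum response elements, had 31 and 71 tags, with a ratio of 1.30 on the log2 scale (0.67 to 1.96). The call of *Elk1* was lost with 3′-most CATG sites alone and at each assumed coefficient of variation, from 0.1 to 0.4. *Rps6ka3*, the kinase RSK2 that phosphorylates Srf and Creb1, had 155 and 339, a log2 ratio of 1.23 (0.95 to 1.51). Of the 20 MAP kinases and their kinases, 18 were listed, 0 were called higher and 1, *Mapk12*, was called lower, with 111 and 29 tags. That list had a median log2 ratio of 0.31.

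AP-1 proteins also pair with factors of the Atf, Maf and Jdp groups. Of 19 such genes 16 were listed, 1 was called higher and 2 lower, with a median log2 ratio of -0.24. *Jdp2*, a repressor that pairs with Jun, had 77 and 163 tags. *Maff*, a small Maf protein that is itself induced early, had 100 and 29.

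Among 24 other immediate-early transcription factors, 23 were listed, 3 were called higher and 5 lower, with a median log2 ratio of -0.03. *Ier5* was higher, with 92 and 217 tags, and so was *Csrnp1*, with 17 and 44. The call of *Csrnp1* was kept under 8 of 15 alternatives, and was lost under TMM, DESeq2 and unambiguous-tag scaling, with antisense tags added and at each assumed coefficient of variation. Over these its log2 ratio ran from 0.71 to 1.47. *Cebpd*, with 370 and 57 tags, *Cebpb*, with 637 and 165, and *Bhlhe40*, with 1060 and 293, were called lower along with *Maff*. *Nr4a2*, with 0 and 15 tags, and *Id1*, with 1386 and 481, complete these calls and were named after their values were seen. *Cebpb* and *Cebpd* encode bZIP factors of inflammatory responses, and Bhlhe40 is a repressor induced by stress and by the clock.

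Of 24 other immediate-early response genes, which encode secreted, signalling or RNA-binding proteins, 23 were listed, 8 were called higher and 2 lower. Their median log2 ratio was 0.69. *Ccn1* and *Ccn2*, matricellular proteins whose genes are Srf targets, had 212 and 2052 and 196 and 990 tags. *Gadd45g*, a stress sensor, had 14 and 326 tags, which gives a log2 ratio of 4.64 (3.88 to 5.53), and *Tiparp* had 57 and 321. *Trib1*, with 162 and 29 tags, and the antiproliferative *Btg2*, with 87 and 32, were called lower.

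**Figure D5:**
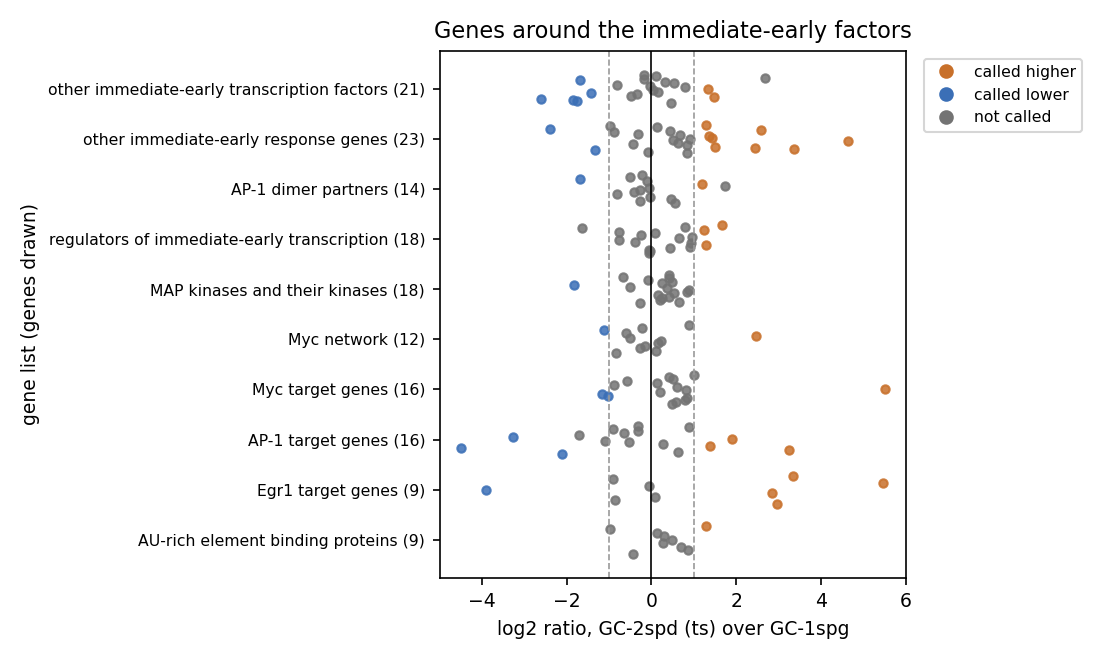
Log2 ratio of GC-2spd (ts) over GC-1spg for every gene of the 10 related lists that had a tag in both libraries, 1 point per gene, with the number drawn in parentheses and dashed lines at a 2-fold difference. Orange points are called higher, blue points called lower and grey points not called. The regulators have 3 orange points and 0 blue points, and the AP-1 targets have 3 of each.

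Genes that AP-1 is known to activate differed in both directions. All 19 were listed, 3 were called higher and 3 lower, with a median log2 ratio of -0.53. *Cd44*, with 165 and 1464 tags, *Mmp2*, with 454 and 1586, and *Hbegf*, with 33 and 80, were called higher. *Ereg*, with 314 and 13 tags, *Mmp3*, with 62 and 6, and *Ccl2*, with 1844 and 399, were called lower. Of 11 genes known as Egr1 targets 10 were listed, 4 were called higher and 1 lower, with a median log2 ratio of 0.02. *Thbs1*, with 195 and 1831 tags, *F3*, with 54 and 390, and *Pdgfa*, with 9 and 60, were called higher, and *Pdgfb*, with 64 and 4, was called lower.

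Around *Myc*, 13 of 14 network genes were listed, 1 was called higher and 2 lower, with a median log2 ratio of -0.22. *Mycn*, its paralogue, had 36 and 0 tags, a drop of at least 7.07-fold when its unlisted tags are set to the upper 95% Poisson limit of a single copy each. *Max*, the partner of Myc, had 207 and 208 tags, while *Mxi1*, an antagonist, had 175 and 75. *Mxd3*, another antagonist, had 5 and 26 tags. It was not called when sense matches were preferred, under TMM scaling or at any assumed coefficient of variation. Of 17 Myc target genes, all listed, 1 was called higher and 2 lower, with a median log2 ratio of 0.48. *Ldha*, with 25130 and 10396 tags, and *Hspd1*, with 5912 and 2706, were called lower. *Nop56*, a nucleolar protein gene, was called higher with 29 and 1239 tags, and its log2 ratio of 5.52 ran from 2.30 to 5.79 over the processing alternatives.

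Over these 10 lists, 157 of 166 genes outside the 11 were listed, and 24 were called higher and 17 lower, 26.1% in all, beside 19.5% of all genes. Some genes stand on more than 1 list, and the lists were chosen with earlier results known. Here too the share of all genes is not matched for level. Among the genes named, the calls of *Ier5*, *Cebpd*, *Btg2*, *Trib1* and *Mxd3* were also lost when 3′-most CATG sites alone were counted, and that of *Hbegf* when the longest transcript of each gene was the reference.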

How the data were processed

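Each cell line, GC-1spg and GC-2spd (ts), gave 1 DGE library, without replicates. The authors removed adaptor, low quality and single copy tags and deposited the count (copy number) and the TPM of each tag. TPM scales the count to the clean tags of the library. The authors' mapping was to UniGene, with a program not given in the sources used here. Only the count was used below.

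Tags were matched to all CATG+17 tags of GENCODE M21 transcripts (GRCm38), sense and antisense, exact first and then with 1 mismatch. Sense tags whose best matches belonged to 1 gene were summed. Genes were tested by Audic-Claverie with Benjamini-Hochberg adjustment over 14450 genes (FDR at most 0.001, absolute log2 ratio at least 1, the authors' thresholds, with zeros set to 0.01 TPM). Without replicates the quasi-likelihood test of edgeR could not be fitted. Intervals are exact at 95% and, like all limits, hold for counting error alone, because 1 library per line gives no spread between cultures. They also take each copy as a separate molecule, which amplified copies of a tag are not. The calling was run on simulated counts with counting error alone, where only genes with many tags were changed. That run could not check calls at low counts or under a spread between cultures. The members and lists were chosen with earlier results of these data known. From each list, at most 4 called genes per direction with at least 20 tags over both libraries are named, and *Max*, *Id1*, *Nr4a2* and single markers were named after their values were seen. Some genes and a tag are not reported here. The alternatives are other matching, strand, scaling (TMM, DESeq2 size factors, unambiguous sense tags), test, filter and zero settings, and an exact test in edgeR at fixed values of the biological coefficient of variation (BCV). Software was Python 3.11.15 with scipy 1.17.1, numpy 2.4.6, matplotlib 3.10.9 and pandas 2.3.3, and R 4.3.3 with DESeq2 1.42.0 and edgeR 4.0.16.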

Additional observations from a re-analysis of the deposited data

Results flagged for a closer look

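Antisense tags, which enter no comparison above, were listed for 9 of the 11 genes, and are given here where they exceed the 4.74 copies that an unlisted tag allows, GC-1spg first. *Ier3* had 268 and 11 antisense copies, equal to 39.3% and 23.4% of its sense copies, and a log2 ratio of -4.50 (exact 95% interval -5.52 to -3.64). *Myc* had 250 and 94, a log2 ratio of -1.31 (-1.67 to -0.96), and its sense tags had -0.30 (-0.45 to -0.16). *Fosl2* had 141 and 36 antisense copies, a log2 ratio of -1.87, and *Egr1* had 12 and 68, a log2 ratio of 2.60 (1.71 to 3.63). *Jun* had 83 and 72, *Junb* 16 and 20, *Fos* 4 and 15, and *Jund* 9 and 0. Below that limit were the 4 copies of *Fos* in GC-1spg and the 2 of *Ier2* in GC-2spd (ts), and *Fosb* and *Fosl1* had none that fitted them alone. There are no control libraries, and the source of these tags was not tested.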

How the results depend on the processing

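Over 15 alternatives, the log2 ratios of *Fos*, *Fosb*, *Fosl2*, *Egr1*, *Ier2*, *Ier3*, *Jun*, *Junb*, *Jund* and *Myc* kept their direction. That of *Fosl1*, on 2 copies per library, turned to -0.072 under TMM scaling and to -0.062 under DESeq2 size factors. These scalings lowered every log2 ratio by 0.17 and 0.16, and changed the calls over all genes from 1684 higher and 1133 lower to 1292 and 1443 and to 1314 and 1425. With an assumed spread between cultures in edgeR's exact test, a BCV of 0.2 called 0 members higher and 2 lower, *Fosl2* and *Ier3*, and 11 genes of the related lists higher and 10 lower. A BCV of 0.4 called 0 members in either direction, and 3 list genes higher and 1 lower. At a BCV of 0.1 *Fosb* lost its call. A single library per line gives no estimate of the BCV. The call of *Fosb* was also lost under exact matching and both scalings named. The exact setting drops the 12 copies with C13T, and the scalings shift the ratio as given. Counted over members and alternatives, direction and call held 147 times, calls were lost 14 times, the direction turned 2 times and 1 call was gained, *Fosl1* with sense matches preferred. Settings that change only the test, the count filter or the BCV leave every ratio as it is, so direction could not turn there. No paired analysis was possible because each line has 1 library, and leaving out a library was impossible for the same reason. Depth limits *Fos*, *Fosb* and *Ier2*, with 15 to 36 copies in GC-1spg, whereas the 2 copies of *Fosl1* follow from leaving out its shared tags.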
